A study of Mus musculus with 6 samples.

Results

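Genes of nerve cells and their synapses were read in RNA from whole adult mouse bone. The list held 33 genes by symbol, among them genes of transmitter release, the axon, glutamate and GABA signalling, and the peripheral neuron genes Prph, Th and Dbh. A probe set was taken as a member where the annotation of the array gave it exactly 1 symbol and that symbol was on the list. This found 76 of 45101 probe sets, which stood for 32 of 18193 named genes. Grin1 had no such probe set. Of the 76 probe sets, 37 passed the filter on signal (above the median of the array on at least 2 of 6 arrays) and stood for 22 genes, which were tested. The other 10 genes lay below the filter.

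The study compared bone organs from skeletal sites of untreated, skeletally mature male mice (24 to 26 g, strain written as Black CD57, age in weeks not given in the sources used here), with 2 Affymetrix arrays for each of 3 sites. Calvaria was the skull roof with the sutures taken away, mandible was the jaw bone with its teeth, and ulna was the forearm bone freed of soft tissue and epiphyses. Tissue was ground whole, so each array read bone together with whatever vessels, nerves, marrow or adhering tissue came with it. The methods divide the mice into 2 groups but name neither the mice behind an array nor any pooling, so a p-value here speaks of array-to-array spread alone, and that spread may be technical. Fewer cells of a type and less RNA per cell cannot be told apart in such samples. The bone markers measured, Col1a1, Col1a2, Ibsp, Sp7, Dmp1, Phex and Mepe, were above the array median on both arrays of every site (7 of 7). The 6 tooth markers were above it on both mandible arrays and on none of the others. Signal is the deposited MAS5 value, whose median was 30.6 to 33.6 across arrays.

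A nerve cell releases transmitter when a vesicle fuses with the membrane of its ending, a step run by SNARE proteins (Snap25, Stx1a), a calcium sensor (Syt1) and their partners. Most excitatory synapses of the brain use glutamate and most inhibitory ones use GABA. Bone is innervated by sensory and sympathetic axons whose cell bodies lie in ganglia outside it, so the messenger RNA of most neuronal genes is made at a distance from the bone. The skull roof lies directly over the meninges and the brain.

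Outside the nervous system many neuronal genes are held silent by the repressor REST, which binds a 2-part element called RE1. The letters CAGCACC and GGACAGC, taken from its left and right parts, were searched on both strands in the 250 bases before the start of each gene (RefSeq, GRCm38.p6), as a description with no test. Promoters were at hand for 24 of the 33 genes, 28 promoters in all. The left letters occurred in 2 of the 28 (7.14%, against 5.73% of 32851 promoters of all genes) and the right letters in 3 (10.7% against 5.28%). At least 1 of the motifs was in 5 promoters (17.9% against 10.6%), and none of the 28 held both in these exact letters, which 0.393% of all promoters did. Parts that differ in 1 letter were not counted. In the Gria2 promoter below, ggtgcta stands 2 bases past the match and differs in 1 letter from the opposite strand of CAGCACC. The 3 promoters below belong to genes that were called between sites and carry a match, shown in capitals. Tubb3 (chr8:123411303-123411552, + strand) carried CAGCACC on the opposite strand, 121 to 115 bases before the start. Gria2 (chr3:80802836-80803085, - strand) carried GGACAGC on the opposite strand, 171 to 165 bases before it. Slc1a2 (chr2:102706188-102706437, + strand) carried GGACAGC on the strand of the gene, 93 to 87 bases before it. The remaining matches were in Gad2 and, at 2 places, in Syn1, which both lay below the filter.
Tubb3: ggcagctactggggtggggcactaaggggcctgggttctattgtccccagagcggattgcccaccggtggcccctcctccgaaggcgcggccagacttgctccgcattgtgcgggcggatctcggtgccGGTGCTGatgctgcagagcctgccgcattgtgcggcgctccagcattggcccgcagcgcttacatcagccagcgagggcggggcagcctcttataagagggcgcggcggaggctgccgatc
Gria2: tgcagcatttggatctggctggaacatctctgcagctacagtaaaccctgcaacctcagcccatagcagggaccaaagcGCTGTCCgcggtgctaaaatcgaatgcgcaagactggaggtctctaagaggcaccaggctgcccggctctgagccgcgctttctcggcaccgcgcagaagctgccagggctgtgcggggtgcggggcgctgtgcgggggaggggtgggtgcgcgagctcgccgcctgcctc
Slc1a2: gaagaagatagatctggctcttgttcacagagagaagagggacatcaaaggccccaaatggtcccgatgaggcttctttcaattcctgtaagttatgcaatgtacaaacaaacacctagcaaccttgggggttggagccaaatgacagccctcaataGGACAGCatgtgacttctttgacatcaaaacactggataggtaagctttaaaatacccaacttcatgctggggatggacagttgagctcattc

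Neuronal and synaptic genes as a group had most signal in calvaria. Of the 32 genes, 20 and 21 were above the array median on the calvaria arrays, 14 and 15 on the mandible arrays and 11 on each ulna array. Their summed signal was 3305 to 3372 in calvaria, 1398 to 1422 in mandible and 1198 to 1289 in ulna. Rab3a had the highest signal of the list on every mandible and ulna array. Over all 32 genes, tested or not, both calvaria arrays exceeded both ulna arrays for 22 (68.8%, against 27.0% of all 18193 genes), and both mandible arrays lay below both calvaria arrays for 19 (59.4% against 31.7%). The neuronal genes were also read with less precision than most. Across the 22 genes tested, log2 values at a site had a median SD of 0.343, against 0.194 across all tested probe sets.

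**Figure D1:**
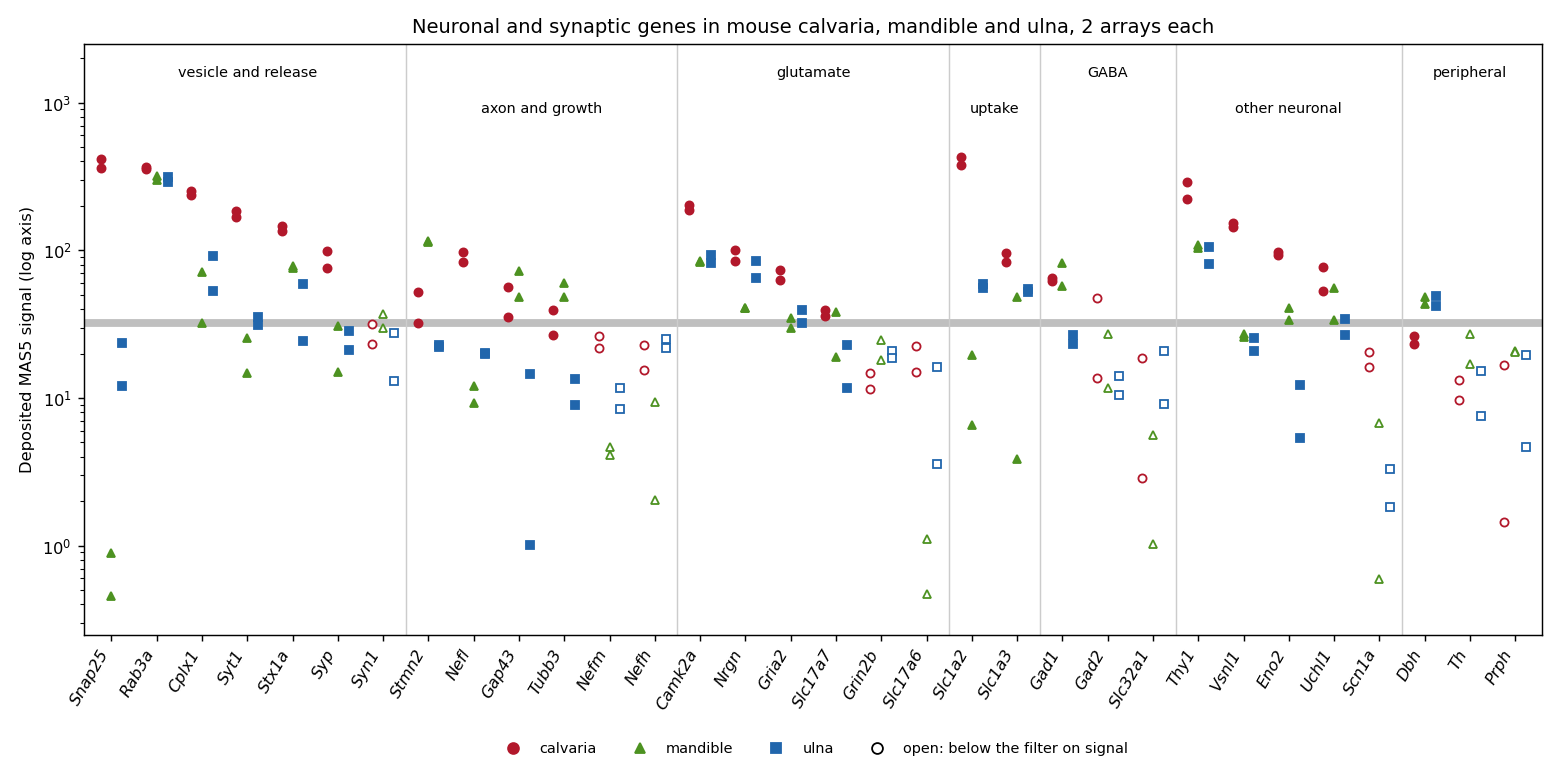
Deposited MAS5 signal (vertical, log axis) of the 32 neuronal and synaptic genes, by role, each array drawn as its own point, in calvaria (circles), mandible (triangles) and ulna (squares), with a grey band at the array medians of 30.6 to 33.6. Snap25 spans from 416 and 362 in calvaria to under 1 in mandible, Rab3a lies between 291 and 369 at every site, and the open points of the 10 genes below the filter lie mostly under the band.

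Between calvaria and ulna, 14 of the 22 genes tested were higher in calvaria (63.6%, against 8.44% of all 12326 genes tested) and 0 were lower (4.59%). Called means an adjusted p under 0.05 in limma, adjusted over all 25233 probe sets tested, and a difference of at least 2-fold. Without the fold limit the counts were also 14 and 0, at an unadjusted p under 0.05 they were 17 and 1, and in sign 21 of the 22 genes were positive, all but Dbh. The median log2 difference of the 22 was 1.44, and that of all genes tested was -0.05. Of the 22 genes, 4 (Snap25, Nefl, Syp and Vsnl1) passed the filter through the calvaria arrays alone and 6 through calvaria and mandible, so that a difference from ulna was in part built into their being tested. The count fell to 8 with either calvaria array left out, because those 4 genes then no longer passed the filter and others lost their call. With the tested probe sets kept, a setting chosen after the data were seen, it was 11 without calvaria array 1 and 9 without calvaria array 2.

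Between mandible and calvaria, 12 of the 22 genes were lower in mandible (54.5%, against 4.02% of all genes) and 1, Stmn2, was higher (4.55%, against 5.15%), with a median log2 difference of -1.25 against -0.09 for all genes. Snap25, Nefl, Syp and Vsnl1, 4 of the 12, were tested through the calvaria arrays alone, so a lower value in mandible was in part built into their being tested. The same holds for Syt1 and Slc1a2, 2 more of the 12, which were tested through calvaria and ulna arrays. The lower count was 6 without either calvaria array, and 10 and 9 with the tested probe sets kept. Between mandible and ulna, 5 genes were higher in mandible (22.7%, against 11.0%) and 2, Snap25 and Slc1a2, were lower (9.09%, against 11.0%), with a median of -0.10. All 5 (Stmn2, Tubb3, Gap43, Gad1 and Eno2) passed the filter with no ulna array above its median. A value above ulna was thus in part built into their being tested. Snap25 passed through the calvaria arrays alone, and Slc1a2 with no mandible array above its median. In that comparison the median over all tested probe sets was -0.13 on the scaled values and -0.02 on the values as deposited, a shift of the whole array that each log2 difference here carries. The 3 comparisons share arrays and are given side by side, not as independent results. Counts by role and by list below stand beside the shares of all genes given above for each comparison. They include genes tested with no array of the lower site above its median, whose difference was likewise in part built in. This is not repeated for each gene.

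**Figure D2:**
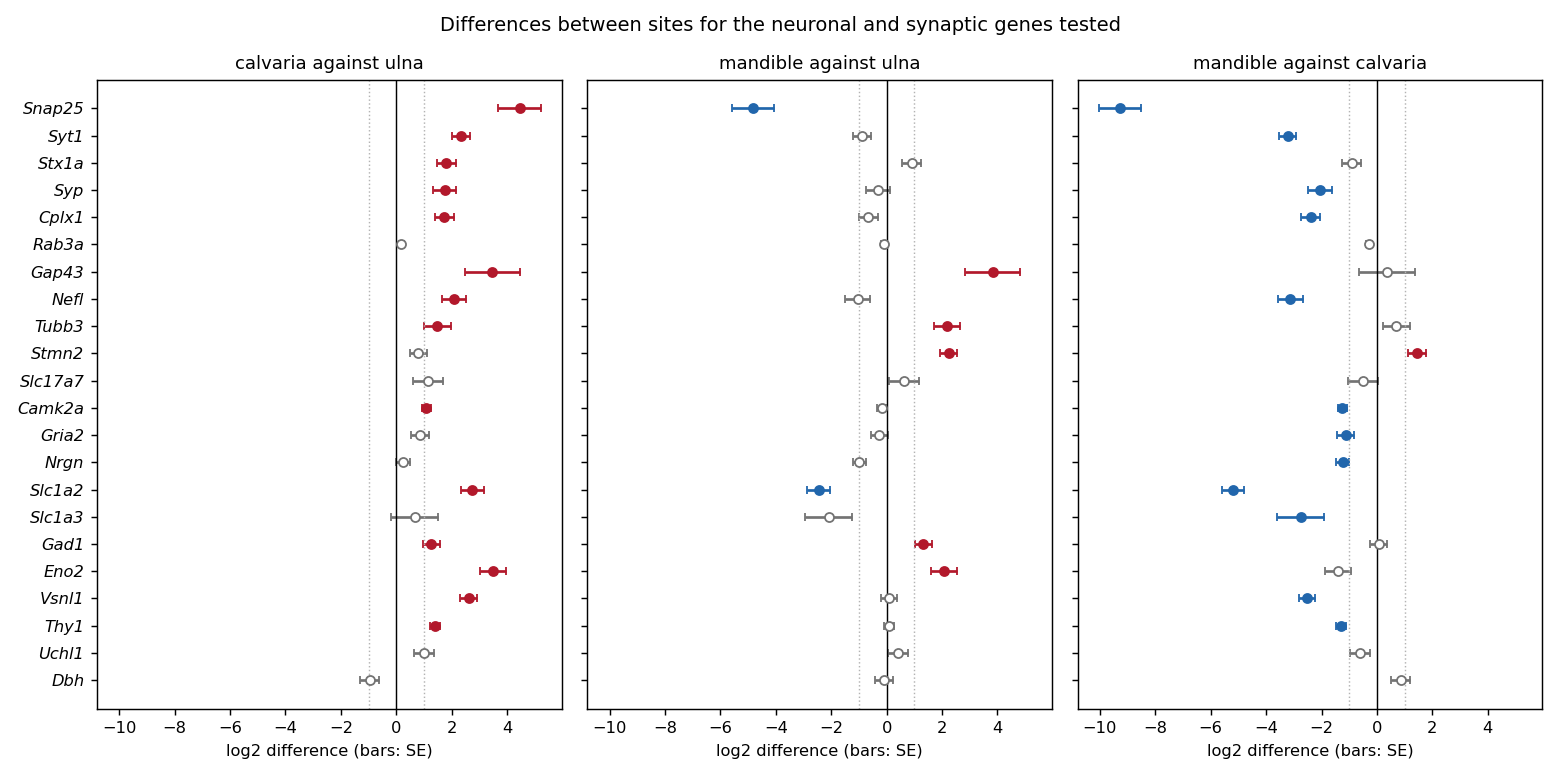
Log2 difference (horizontal, bars are 1 SE from limma) of the 22 neuronal and synaptic genes tested, in 3 comparisons of 2 arrays against 2, filled where called and open where not. Dotted lines mark the 2-fold limit; calvaria exceeds ulna for 14 filled genes, while mandible shows 5 filled points to the right of ulna and 2 to the left.

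Among the genes of vesicles and transmitter release, Snap25 and Rab3a lay at the ends of the range of differences. Snap25, a SNARE protein of the presynaptic membrane, had a signal of 416 and 362 on the calvaria arrays, 0.457 and 0.899 in mandible and 23.4 and 12.1 in ulna. Both calvaria arrays stood far above the array median and the other 4 below it. The difference from ulna was 21.9-fold (log2 4.45 ± 0.76 SE, adjusted p = 0.00123). Its size hung on how signals below the array median were treated. With an offset of 50% of the array median added to each value, the log2 difference from ulna was 3.55, and that between mandible and calvaria moved from -9.28 to -4.58. The mandible values under 1 lie at the bottom of the scale and are best read as low, not as exact. With the tested probe sets kept, the call of Snap25 between calvaria and ulna was lost without either calvaria array. Snap25 was also called lower in mandible than in ulna by limma (log2 -4.83, adjusted p = 0.000432), with all 4 arrays below the array median. That call was lost with only the 4 arrays of the comparison in the fit.

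Syt1, the calcium sensor of fast release, had a signal of 185 and 169 in calvaria, 25.5 and 14.8 in mandible and 35.7 and 31.0 in ulna. Calvaria was above both other sites with no overlap, 5.03-fold over ulna (log2 2.33 ± 0.32 SE, adjusted p = 0.000277), and mandible was 9.34-fold lower than calvaria (adjusted p = 4.24e-05). Cplx1, a complexin that clamps the SNARE complex, gave 237 and 251 in calvaria, 32.0 and 71.1 in mandible and 91.4 and 52.8 in ulna. It was 3.33-fold higher in calvaria than in ulna (adjusted p = 0.0036), a call that was lost in the fit with no trend, while mandible and ulna overlapped. Its log2 difference between mandible and calvaria was -1.81 without mandible array 1 and -2.98 without mandible array 2. Syp, the vesicle membrane protein synaptophysin, gave 75.9 and 98.9 in calvaria, 30.5 and 14.9 in mandible and 21.2 and 28.3 in ulna. Only the calvaria arrays exceeded the array median at this probe set (3.36-fold over ulna, adjusted p = 0.0101), and this call was lost without ulna array 1. A further probe set of Syp, below the filter, ran the other way, at 16.5 and 17.0 in calvaria against 21.4 and 36.7 in ulna.

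Stx1a, the SNARE partner syntaxin 1A, gave 135 and 145 in calvaria, 76.0 and 78.1 in mandible and 59.5 and 24.3 in ulna, in that order with no overlap. It was 3.50-fold higher in calvaria than in ulna (adjusted p = 0.00238, log2 1.81), a difference of 2.44 without ulna array 1 and 1.17 without ulna array 2, and its mandible values were not called against either site. A further tested probe set of Stx1a was called nowhere by limma (log2 1.10 between calvaria and ulna, adjusted p = 0.151), and its mandible and ulna arrays overlapped. The leading one has the suffix _x_at, which the maker gives to sets whose probes may read several genes. The same suffix marks the leading probe set of Rab3a, a small GTPase of vesicles that also works in gland cells. Rab3a had a signal of 369 and 355 in calvaria, 318 and 298 in mandible and 314 and 291 in ulna. These differences came to at most 0.28 on the log2 scale and none was called. Syn1, a synapsin that tethers vesicles, lay below the filter at 31.5 and 23.3 in calvaria, 37.3 and 29.9 in mandible and 27.8 and 13.0 in ulna. Of the 6 genes tested with this role, 5 were higher in calvaria than in ulna, and 4 were lower in mandible than in calvaria (Snap25, Syt1, Cplx1 and Syp).

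Genes of the axon and its growth did not share that order. Nefl, the light neurofilament chain, had a signal of 82.8 and 96.9 in calvaria, 12.1 and 9.20 in mandible and 20.3 and 19.8 in ulna. It was above the array median in calvaria alone, 4.24-fold over ulna (log2 2.08 ± 0.45 SE, adjusted p = 0.00509). It was not tested with either calvaria array left out, and with the tested probe sets kept this call was lost without calvaria array 2. A further probe set was called between mandible and calvaria (log2 -2.65, adjusted p = 0.0105), as was this one (-3.12, adjusted p = 0.000541), but not between calvaria and ulna (1.44, adjusted p = 0.105). The medium and heavy neurofilament genes Nefm and Nefh lay below the array median on all 6 arrays, Nefm at 26.2 and 21.7 in calvaria against 11.8 and 8.47 in ulna, and Nefh at 22.8 and 15.4 against 22.0 and 25.0.

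Gap43, a growth cone protein of extending axons, gave 56.9 and 35.3 in calvaria, 72.3 and 48.1 in mandible and 14.5 and 1.01 in ulna. Calvaria and mandible overlapped and both lay above ulna. The fold of 11.1 over ulna in calvaria (log2 3.47 ± 1.00 SE, adjusted p = 0.0234) and of 14.2 in mandible (log2 3.83 ± 1.00 SE, adjusted p = 0.00982) rested on the value of 1.01, and both calls were lost in the fit with no trend (adjusted p = 0.119 and 0.0703). Without ulna array 2 the log2 differences were 1.56 and 1.92, and without ulna array 1 they were 5.38 and 5.74. The call in calvaria was lost without either calvaria array, and that in mandible without mandible array 1. Tubb3, the neuronal class of beta-tubulin, gave 39.3 and 26.7 in calvaria, 60.5 and 48.6 in mandible and 8.93 and 13.5 in ulna. Mandible was highest without overlap and ulna lowest. Its 4.56-fold difference between mandible and ulna (adjusted p = 0.00347) was called, as was its 2.80-fold difference between calvaria and ulna (adjusted p = 0.0373), although calvaria lay at the array median.

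The call of Tubb3 between calvaria and ulna was lost with either calvaria array, either mandible array or ulna array 1 left out, and in the fit with the replicate block (adjusted p = 0.0528). Stmn2, a stathmin that acts on axonal microtubules, gave 32.3 and 52.0 in calvaria, 116 and 113 in mandible and 22.1 and 22.8 in ulna. It was the only listed gene called higher in mandible than in calvaria (2.72-fold, log2 1.44 ± 0.31 SE, adjusted p = 0.00704), and was 4.71-fold higher in mandible than in ulna (adjusted p = 0.000186). The call against calvaria was lost without calvaria array 1 or either mandible array. A further probe set of Stmn2 did not show this order. It read 64.7 and 54.0 in calvaria, 10.2 and 40.8 in mandible and 39.4 and 17.0 in ulna, and its log2 difference of mandible from calvaria was -1.57 (adjusted p = 0.106). Of the 4 genes tested with this role, 3 (Stmn2, Tubb3 and Gap43) were higher in mandible than in ulna and 3 (Nefl, Tubb3 and Gap43) in calvaria than in ulna.

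Glutamate genes were split between those read in every bone and those near or below the array median. Camk2a, a calmodulin kinase of the excitatory synapse, gave 202 and 189 in calvaria, 84.9 and 83.5 in mandible and 82.3 and 93.4 in ulna. It stood above the array median on every array and was 2.11-fold higher in calvaria than in ulna (log2 1.08 ± 0.17 SE, adjusted p = 0.000594) and 2.38-fold lower in mandible than in calvaria (adjusted p = 0.000303). Its difference from ulna was close to the 2-fold limit and fell under it without ulna array 1 (log2 0.98). Nrgn, the calmodulin-binding protein neurogranin of dendrites, had 101 and 85.4 in calvaria, 40.5 and 40.4 in mandible and 84.7 and 65.2 in ulna. Here mandible stood apart, 2.36-fold below calvaria (adjusted p = 0.00345), while the calvaria and ulna arrays lay close together (log2 0.24, adjusted p = 0.484). Platelets carry Nrgn as well.

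Gria2, an AMPA receptor subunit, gave 73.7 and 63.2 in calvaria, 30.0 and 34.7 in mandible and 39.7 and 32.2 in ulna at its leading probe set. Its lower value in mandible than in calvaria was called (2.18-fold, adjusted p = 0.0245) but not with either calvaria array or mandible array 1 left out, and its difference between calvaria and ulna was not called (log2 0.85, adjusted p = 0.0597). A further probe set gave 87.4 and 80.3 in calvaria against 12.3 and 3.53 in ulna and was called (log2 3.59, adjusted p = 0.00474). Both further probe sets were called lower in mandible than in calvaria, at -3.16 (adjusted p = 0.0127) and -6.32 (adjusted p = 0.0230). Slc17a7, the vesicular glutamate transporter of cortical neurons, gave 39.4 and 35.9 in calvaria, 38.6 and 19.1 in mandible and 22.7 and 11.6 in ulna, and was called nowhere. Slc17a6, the transporter of subcortical neurons, and Grin2b, an NMDA receptor subunit, lay below the array median on every array. Slc17a6 was at 15.1 and 22.4 in calvaria and at most 1.11 in mandible, and Grin2b had 11.5 to 24.7 across the 6 arrays. Of the 4 glutamate genes tested, 1 was higher in calvaria than in ulna and 3 were lower in mandible than in calvaria.

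Glutamate uptake is mostly the work of astrocytes in brain, though both transporter genes are used by other cells too. Slc1a2, the main glutamate transporter of forebrain, had a signal of 382 and 432 in calvaria, 19.7 and 6.54 in mandible and 55.5 and 59.5 in ulna. The sites were ordered calvaria, ulna, mandible with no overlap. Calvaria was 6.70-fold above ulna (log2 2.74 ± 0.41 SE, adjusted p = 0.000483), mandible 5.49-fold below ulna (adjusted p = 0.000621) and 36.8-fold below calvaria (adjusted p = 8.39e-06). With the offset the last was -3.90 in place of -5.20 on the log2 scale, and it was -5.99 without mandible array 1 and -4.42 without mandible array 2. A further tested probe set of Slc1a2 had the same signs but was called nowhere by limma. Its log2 difference was 0.33 between calvaria and ulna (adjusted p = 0.805) and -2.03 between mandible and calvaria (adjusted p = 0.112). Slc1a3, the transporter also found in bone cells, gave 83.9 and 96.3 in calvaria, 3.85 and 48.7 in mandible and 55.1 and 52.4 in ulna at a probe set of the _x_at kind. The mandible arrays were far apart. Its call between mandible and calvaria (log2 -2.76 ± 0.85 SE, adjusted p = 0.0415) did not hold without mandible array 1 (-0.92, adjusted p = 0.0534), without either calvaria array or without either ulna array. The further probe sets of Slc1a3 put mandible lower as well, at -1.73 (adjusted p = 0.0129) and -2.84 (adjusted p = 0.00507), and the second of these was also called lower in mandible than in ulna (-1.67, adjusted p = 0.0380).

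Of the GABA genes only Gad1 was tested, the enzyme that makes GABA from glutamate and that several tissues outside the brain use. It had a signal of 65.3 and 61.8 in calvaria, 57.1 and 81.6 in mandible and 23.4 and 26.9 in ulna. Calvaria and mandible overlapped above ulna, by 2.40-fold (adjusted p = 0.00877) and 2.51-fold (adjusted p = 0.00433), and did not differ beyond their spread (log2 0.06 ± 0.30 SE, adjusted p = 0.909). Gad2, the enzyme found at nerve endings, read 13.8 and 47.8 in calvaria, 27.2 and 11.8 in mandible and 14.1 and 10.5 in ulna, above the array median on 1 array only. Slc32a1, which loads GABA into vesicles, ranged from 1.03 to 20.8 and was below the array median on every array. The call of Gad1 between calvaria and ulna was lost without calvaria array 1, and that between mandible and ulna without mandible array 2.

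Of the remaining neuronal genes, 3 of the 4 tested were higher in calvaria than in ulna. Vsnl1, the calcium sensor visinin-like 1, gave 152 and 145 in calvaria, 25.8 and 27.1 in mandible and 20.9 and 25.6 in ulna, and only calvaria was above the array median (6.10-fold over ulna, log2 2.61 ± 0.29 SE, adjusted p = 6.47e-05). A further tested probe set of Vsnl1 was called nowhere by limma. It gave 1.46 between calvaria and ulna (adjusted p = 0.0799) and -0.66 between mandible and calvaria (adjusted p = 0.460). Eno2, the neuronal enolase of glycolysis, gave 98.1 and 92.6 in calvaria, 40.5 and 33.8 in mandible and 5.32 and 12.2 in ulna, a graded order with no overlap. It was 11.2-fold above ulna in calvaria (adjusted p = 0.000258) and 4.23-fold in mandible (adjusted p = 0.00453), and calvaria and mandible did not differ at the threshold (log2 -1.41, adjusted p = 0.0568). With the offset its log2 differences from ulna were 2.14 and 1.05. The first was 2.88 without ulna array 1 and 4.10 without ulna array 2.

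Thy1, a surface protein of neurons, T cells and fibroblasts, gave 292 and 223 in calvaria, 108 and 104 in mandible and 80.6 and 105 in ulna. It was 2.63-fold higher in calvaria than in ulna (adjusted p = 0.000241). Of the T cell markers, Cd3d and Cd2 were tested and neither was called between calvaria and ulna (log2 -0.12 and -0.26). Between mandible and calvaria, where Thy1 was called lower (-1.31, adjusted p = 0.00055), Cd3d was at -2.04 (adjusted p = 0.0541) and Cd2 at -0.84 (adjusted p = 0.0966), and both were called lower in mandible than in ulna. Uchl1, the neuronal ubiquitin hydrolase, gave 77.2 and 53.3 in calvaria, 33.8 and 55.5 in mandible and 26.7 and 34.1 in ulna, and its 2.01-fold difference between calvaria and ulna was not called (adjusted p = 0.0562). Scn1a, a sodium channel subunit of brain, lay below the array median on all arrays, at 16.3 and 20.7 in calvaria and at most 6.81 elsewhere.

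None of the 3 peripheral neuron genes was called in any comparison, and only Dbh was tested. Prph, the neurofilament-like peripherin of sensory and autonomic axons, read from 1.45 to 21.0 and was below the array median on every array. Th, tyrosine hydroxylase, the first enzyme of noradrenaline synthesis, read 13.3 and 9.68 in calvaria, 17.0 and 27.0 in mandible and 15.2 and 7.52 in ulna, also below it throughout. Dbh, dopamine beta-hydroxylase, the last enzyme on the way to noradrenaline, was the sole member above the array median in mandible and ulna but not in calvaria. It gave 23.1 and 26.2 in calvaria, 48.5 and 43.4 in mandible and 49.1 and 41.8 in ulna. Calvaria lay below both other sites without overlap, but its log2 difference from ulna, -0.96, was not called (adjusted p = 0.0545), nor was that of mandible from calvaria (0.86, adjusted p = 0.0977). A further probe set of Dbh had the opposite sign between calvaria and ulna (0.59, adjusted p = 0.687). The 3 genes summed to 37.8 to 52.6 in calvaria, 86.5 to 91.0 in mandible and 68.8 to 69.0 in ulna.

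Of the 22 genes tested, 11 had several tested probe sets, and these did not always give the same sign. Between calvaria and ulna 3 genes had probe sets on both sides of 0 (Camk2a, Cplx1 and Dbh), between mandible and ulna 2 (Stmn2 and Gria2) and between mandible and calvaria 3 (Stmn2, Cplx1 and Dbh). No probe set of these genes was called against the direction of the leading one. A second probe set of Camk2a was called in calvaria over ulna (log2 1.73, adjusted p = 0.00453) and lower in mandible than in calvaria (-2.16, adjusted p = 0.00154), and another was not called in calvaria against ulna (-1.02, adjusted p = 0.448). For Cplx1 the probe set that ran the other way had values of 33.9 to 57.4 on all arrays (log2 -0.45 between calvaria and ulna, adjusted p = 0.296), and the remaining one was called lower in mandible than in calvaria (-3.22, adjusted p = 0.0177). Taking for each gene the tested probe set with the largest difference gave 15 genes higher in calvaria than in ulna, with Gria2 added.

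**Figure D3:**
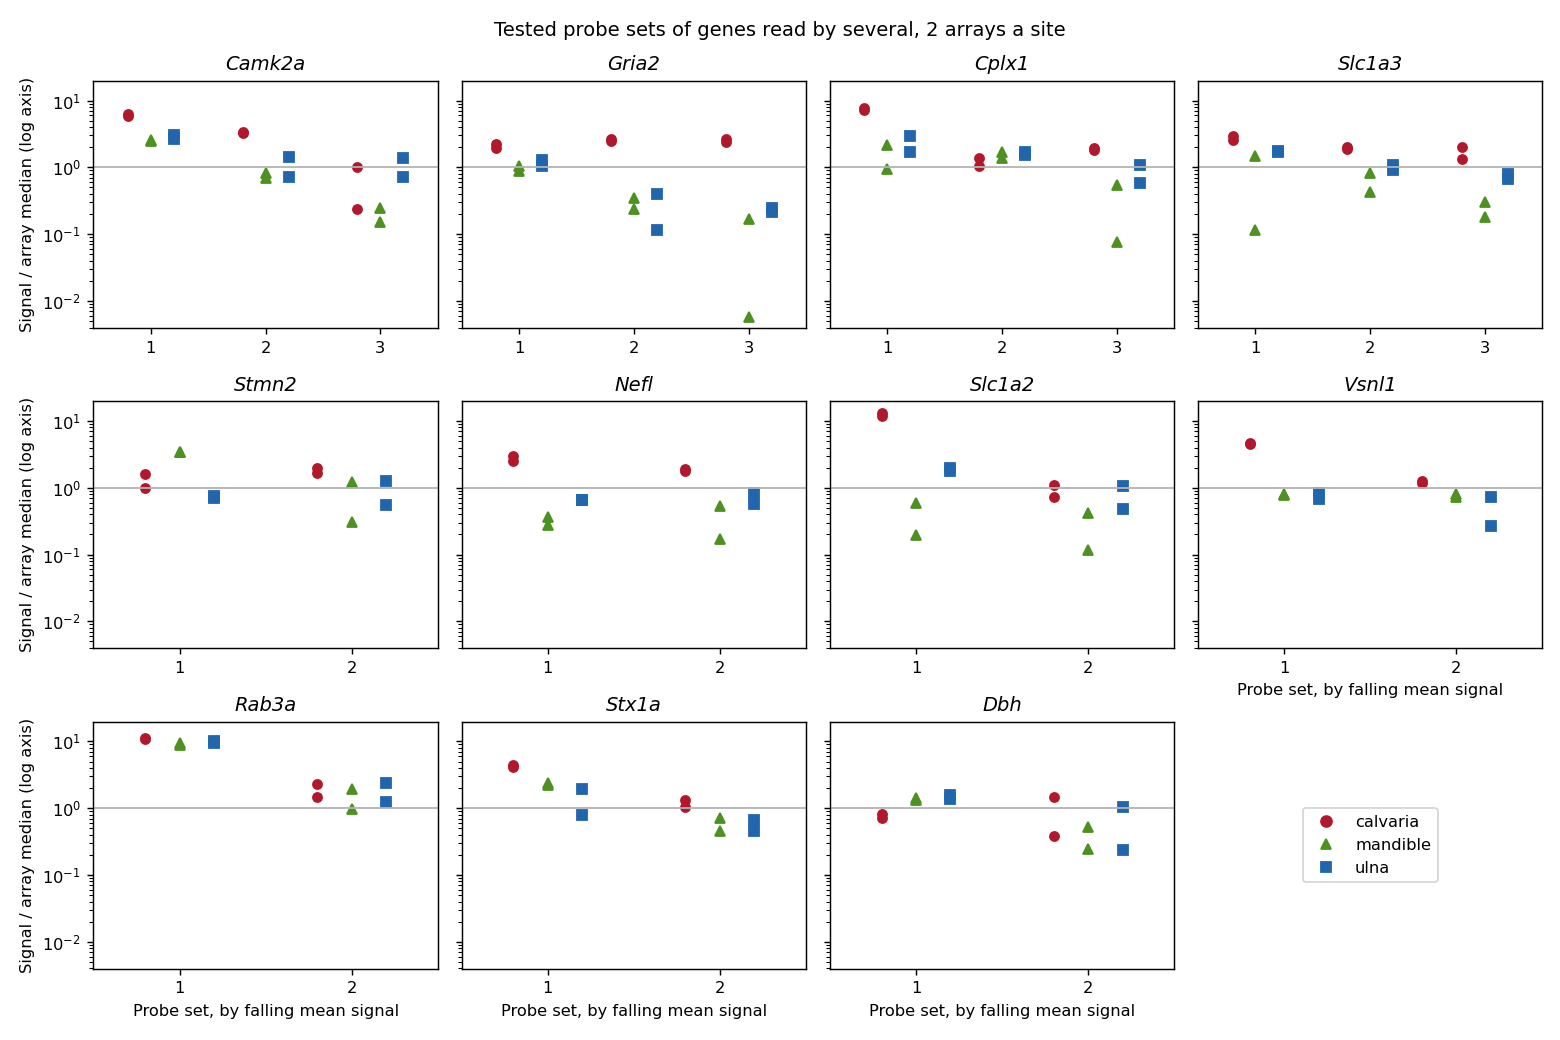
Signal divided by the array median (vertical, log axis, grey line at 1) for each tested probe set of the 11 genes with several, ordered along the horizontal axis by falling mean signal, each array drawn as its own point. Camk2a and Gria2 keep calvaria highest in most of their sets, and the Stmn2 mandible arrays are highest in set 1 but not in set 2.

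Other genes of neurons, listed beside the members with earlier results of these arrays known, were counted in the same fits. Of 24 genes of the neuronal cytoskeleton, RNA-binding proteins and secretory granules, 18 were tested, and 13 were higher in calvaria than in ulna and 0 lower by limma (median log2 difference 2.62), or 15 and 0 at an unadjusted p under 0.05. The share called higher was 72.2%, against 8.44% of all genes, but Rbfox3, Stmn3, Kif5c, Celf4, Scg2 and Scg3, 6 of the 13, had passed the filter through the calvaria arrays alone. The granule proteins Scg2 (4.58), Scg3 (4.21) and Chgb (3.78) and the stathmin Stmn3 (3.73) led them. Chgb, chromogranin B, had a signal of 449 and 392 in calvaria, 6.85 and 3.68 in mandible and 25.0 and 33.5 in ulna, the same order of sites as Snap25 and Slc1a2. In mandible 8 of the 18 were lower than in calvaria (44.4%, against 4.02% of all genes). Of these, 5 were tested through the calvaria arrays alone (Ina, Rbfox3, Stmn3, Kif5c and Celf4). The 8 were led by Chgb (-6.43), the axonal motor Kif5a (-3.99), Stmn3 (-3.67) and the RNA-binding Celf4 (-2.66). Only 1 was higher, the microtubule protein Mapt (2.13). Between mandible and ulna 5 were higher (27.8%, against 11.0%) and 2, Kif5a and Chgb, were lower (11.1%, against 11.0%). Mapt had 214 and 201 in mandible, against 39.3 and 54.2 in calvaria and 73.5 and 40.9 in ulna.

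Of 30 further synaptic genes 19 were tested, and 6 were higher in calvaria than in ulna and 0 lower by limma (median 1.04), or 12 and 1 at an unadjusted p under 0.05. The share called higher was 31.6%, against 8.44% of all genes, and Sv2b, Rims1 and Pclo, 3 of the 6, had passed the filter through the calvaria arrays alone. They were led by the endocytic dynamin Dnm1 (3.72), the synaptotagmin Syt11 (1.95), the active zone protein Pclo (1.69) and the vesicle protein Sv2b (1.54). Dnm1 and Syt11 were also higher in mandible than in ulna (2.98 and 1.90), with Nlgn2 (1.08), and Vamp1 was lower (-1.18). Mandible against calvaria gave 3 lower, Sv2b, Syngr1 and Sncb (15.8%, against 4.02% of all genes), and 0 higher by limma. Sv2b was tested through the calvaria arrays alone and Sncb with no mandible array above its median. A lower value in mandible was thus in part built into their being tested. At an unadjusted p under 0.05 the counts were 8 and 0. Receptors of glutamate and GABA were scarcely read. Of 17 named on the array 4 were tested, and only Gabrb2, a subunit of the GABA-A receptor, was called, higher in calvaria than in ulna (1.56, adjusted p = 0.00107), at 100 and 123 against 39.2 and 32.3.

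Of 30 sensory and autonomic neuron genes 12 were tested. Between calvaria and ulna 3 (25%, against 8.44% of all genes) were higher, Ddc, Calcb and Ntrk3, and 0 lower by limma, with a median of 0.38. Of these, Ddc had passed the filter through the calvaria arrays alone. Between mandible and ulna 4 were higher (33.3%, against 11.0%) and 0 lower (against 11.0%). At an unadjusted p under 0.05 both comparisons had 6 higher and 0 lower. Those called in mandible had among them the sensory neuropeptide gene Calcb (2.47) and the neurotrophin receptor Ntrk3 (1.60). The others, Hand2 (6.24) and Isl1 (6.23), are also patterning factors of the jaw and of tooth-forming tissue, and passed the filter through the mandible arrays alone. Calcb gave 72.9 and 56.2 in mandible, 23.8 and 36.3 in calvaria and 11.3 and 10.1 in ulna, with mandible above the other sites. Between mandible and calvaria Isl1 and Hand2 were higher and Vip and Ddc lower, the last pair tested through the calvaria arrays alone. Of the sensory channel genes, Trpv1, Scn9a, Scn10a and Scn11a lay below the array median on every array, while Trpa1 exceeded it on calvaria array 1 (45.1) and P2rx3 on ulna array 1 (38.0). Over the whole list of 27 named genes, 6 were above the array median on both calvaria arrays, 7 on both mandible arrays and 2 on both ulna arrays.

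**Figure D4:**
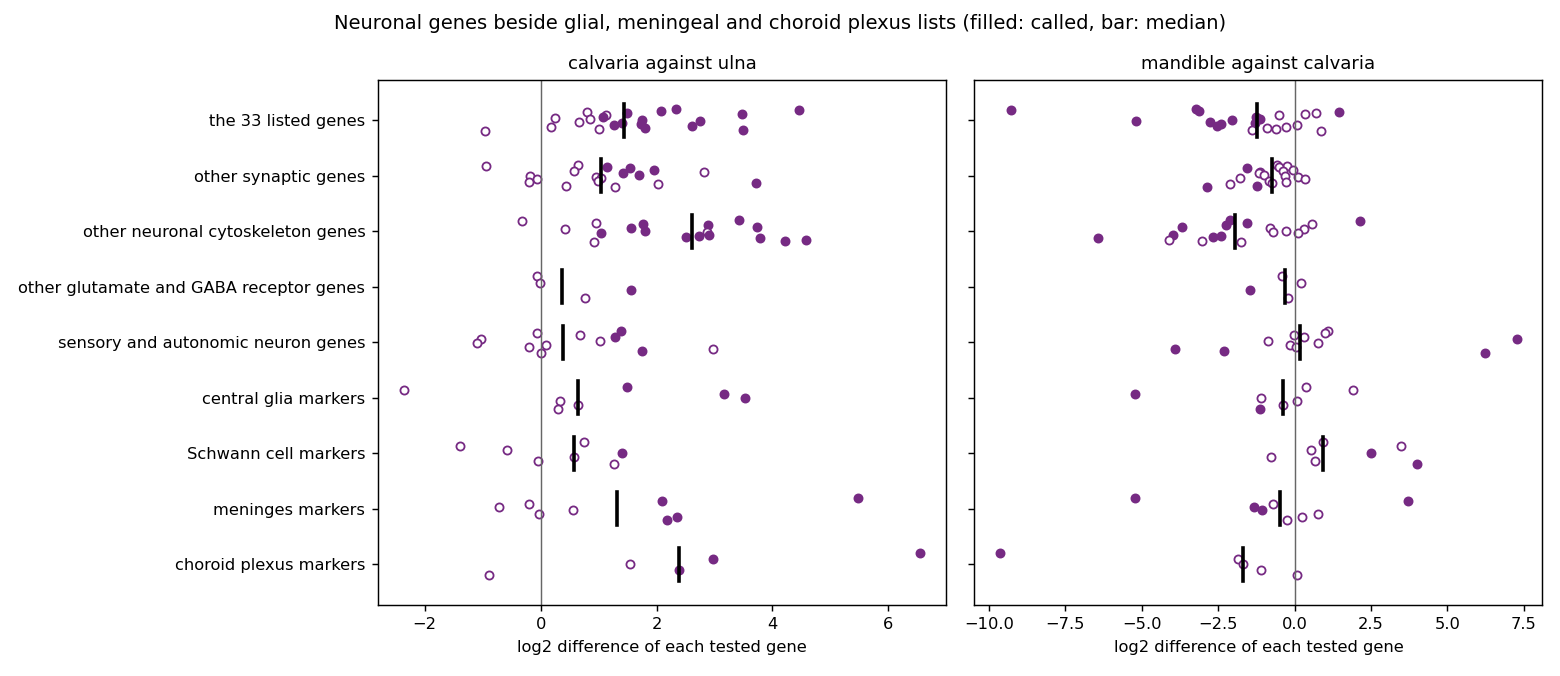
Log2 difference of each tested gene (horizontal) for the listed neuronal and synaptic genes, 4 further neuronal lists and 4 lists of glia, meninges and choroid plexus, between calvaria and ulna (left) and mandible and calvaria (right), filled where called and with vertical bars for list medians. The members have medians of 1.44 and -1.25, and the farthest points of the choroid plexus list, 6.55 and -9.63, are Ttr.

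Some markers of tissues that lie inside the skull were higher in calvaria too. The choroid plexus makes cerebrospinal fluid inside the brain. Of its markers, 3 of 5 tested were higher in calvaria than in ulna (60%, against 8.44% of all genes). They were Ttr, Kcnj13 and Clic6, of which Kcnj13 and Clic6 had passed the filter through the calvaria arrays alone. Ttr, transthyretin, had a signal of 8087 and 8619 in calvaria, 13.7 and 8.56 in mandible and 92.3 and 77.7 in ulna. Summed over the 7 markers, the signal was 9457 to 9857 in calvaria, 1191 to 1315 in mandible and 2008 to 2062 in ulna. The calvaria sums were mostly Ttr, and without it the other 6 summed to 1238 to 1370 in calvaria, 1177 to 1306 in mandible and 1930 to 1969 in ulna, where Aqp1, the water channel also of vessels and red cells, was the highest. Aqp1 was lower in calvaria than in ulna by less than 2-fold (log2 -0.89, adjusted p = 1.95e-05). The marker Otx2 was below the array median everywhere, at 19.1 and 24.8 in calvaria and at most 10.5 elsewhere. Of the meninges markers 4 of 8 were higher in calvaria than in ulna (50%, against 8.44%), Ptgds, Crabp2, Lum and Dcn. Ptgds was at 1916 and 1406 against 41.2 and 29.5. The sums of the meninges markers were 15184 to 15539 in calvaria, 13814 to 13963 in mandible and 3016 to 3127 in ulna. Lum and Dcn, which make up most of those sums, are also made by fibroblasts, and without them the sums were 1807 to 2341, 574 to 582 and 372 to 421. The meninges markers were split in mandible against calvaria, with 3 lower (Ptgds, Slc6a20a and Foxc1) and 1 higher. The higher one was Crabp2, at 287 and 283 in mandible, 16.2 and 27.0 in calvaria and 2.74 and 7.97 in ulna. It passed the filter through the mandible arrays alone, so a higher value there was in part built into its being tested. Its calvaria values, though called over ulna, lay below the array median. Slc6a20a was not called between calvaria and ulna (log2 -0.72, adjusted p = 0.0547). The part of these tissues in the neuronal differences was not tested.

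Central glia were less uniform. Of 7 markers tested 3 were higher in calvaria than in ulna (42.9%, against 8.44% of all genes). They were the myelin gene Mbp, which Schwann cells also use, Mobp and Cldn11. Mobp and Cldn11 passed the filter through the calvaria arrays alone. In mandible Mobp and Cnp were lower than in calvaria. Mobp, of central myelin, gave 80.9 and 84.5 in calvaria, 2.39 and 2.15 in mandible and 4.30 and 17.9 in ulna (log2 3.16, adjusted p = 0.0445). The defining markers Mog, Olig1 and Olig2 were below the array median on all arrays, and Gfap, of astrocytes, exceeded it on ulna array 1 alone (37.1) and was at 15.3 and 11.3 in calvaria. Aqp4, of astrocytes but also of muscle, and S100b exceeded it on all 6 arrays and were called nowhere, with Aqp4 at 79.0 and 72.0 in calvaria, 70.4 and 94.8 in mandible and 54.1 and 59.2 in ulna. Mag exceeded it on 4 arrays and was not called either. The array median was exceeded on both calvaria arrays by 6 of the 13 markers, on both mandible arrays by 4 and on both ulna arrays by 5. Summed over 13 markers the signal was 2318 to 2365 in calvaria, 1716 to 1916 in mandible and 1345 to 1520 in ulna. Cnp and Mbp made up most of these sums. Cnp gave 1219 and 1207 in calvaria, 524 and 617 in mandible and 852 and 1017 in ulna. Mbp was highest in mandible, at 905 and 965 against 676 and 712 in calvaria, and was called there over ulna as well (log2 1.87). Schwann cell markers, of the sheath of peripheral axons, had most signal in mandible, with sums of 2226 to 2444 there, 961 to 1015 in calvaria and 593 to 644 in ulna. Of 7 tested, 3 (Fxyd3, Ncmap and Pmp22) were higher in mandible than in ulna (42.9%, against 11.0% of all genes). In mandible against calvaria 2 (Fxyd3 and Ncmap) were higher (28.6%, against 5.15%) and 0 lower by limma, or 4 and 0 at an unadjusted p under 0.05. Sox10, the defining factor of the lineage, was called nowhere and gave 18.2 to 61.1. Fxyd3 and Pmp22 are used by epithelia as well. Pmp22 alone was most of each sum, at 1569 and 1448 in mandible, 770 and 771 in calvaria and 422 and 453 in ulna. Fxyd3 added 431 and 407 in mandible, so the order of the sums is largely that of these genes. All 10 skeletal muscle markers were lower in calvaria than in ulna, with sums of 6500 to 6598 against 52391 to 53618, and in mandible the sums were 48236 to 49230. The part of any of these cells in the neuronal values was not tested.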

How the data were processed

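Total RNA of 6 samples (2 arrays each of mouse calvaria, mandible and ulna) was hybridised to Affymetrix mouse arrays after one-cycle labelling. The authors deposited 1 MAS5 signal intensity per probe set and array, on a linear scale with a 2% trimmed mean of 100 on every array. The version of MAS5 and detection calls are not given in the sources used here, so signals under the array median have no stated error, and having 2 arrays a site limits precision. Genes were named from the platform annotation, using probe sets with 1 symbol only (34945 of 45101; 932 had several). The 64 control probe sets were left out of the tests.

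Each value was divided by its array's median and taken to log2, with no offset. Probe sets above the median on at least 2 of 6 arrays were fitted with a mean for each site in limma 3.58.1 (R 4.3.3, eBayes with trend, Benjamini-Hochberg over 25233 probe sets). A gene stood by its tested probe set of highest mean signal. Called members are given with each array's value, and further lists by counts, medians and up to 4 called genes with the largest difference. Further probe sets are given where called or opposite in sign, and for some genes where not called. The script was checked on simulated data. Alternatives covered scaling, filter, offset, trend, arrays in the fit, replicate block, probe set and each array left out. Members and lists were chosen with earlier results of these data known.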

Additional observations from a re-analysis of the deposited data

How the results depend on the processing

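Of the 34 gene differences called, 517 values under alternatives kept direction and call in 463 cases, lost the call in 53 and reversed in 1. The reversed one was Stmn2 between mandible and calvaria, -1.57 with its probe set of largest difference. The 517 leave out each difference whose gene an alternative no longer tested, so they understate the losses. With the filter at the 75th percentile only 19 of the 34 had a value. Snap25, Nefl, Syp and Vsnl1 had none with a calvaria array left out. With the filter at the 75th percentile, which left 10 of the genes to test, the genes higher in calvaria than in ulna fell from 14 to 8, those higher in mandible than in ulna from 5 to 1, and those lower in mandible than in calvaria from 12 to 7. Leaving out each array in turn gave 8 to 14 higher in calvaria than in ulna, 4 to 6 higher and 1 to 5 lower in mandible than in ulna, and 0 to 1 higher and 6 to 12 lower in mandible than in calvaria. Part of this is the filter's own construction, since Snap25, Nefl, Syp and Vsnl1 need both calvaria arrays to pass it. With the tested probe sets kept, chosen after the data were seen, 9 were higher in calvaria than in ulna without calvaria array 2, and 0 were higher in mandible than in calvaria without calvaria array 1. The count lower in mandible than in ulna, 2, was 1 with only the 4 arrays of the comparison and 4 by the adjusted p alone. The count higher in mandible than in calvaria, 1, was 0 with the probe set of largest difference. The cause of the losses was not tested otherwise. For the single count of 0 lower in calvaria than in ulna, limma gave 0 under every alternative listed. With the replicate block the counts higher were 13, 5 and 1 and those lower 0, 3 and 12, in the order calvaria against ulna, mandible against ulna and mandible against calvaria. Deviations of same-numbered arrays correlated at -0.005 to 0.006 with calvaria and at -0.012 between mandible and ulna. With 2 arrays a site this cannot settle whether same-numbered arrays came from the same mice, which the methods do not state. Signal over background limits the size of each fold with a side below the array median. Calls changed with the offset as well. The counts higher were then 11, 4 and 1 and those lower 0, 3 and 11, in the same order of comparisons. Camk2a, Gad1 and Tubb3 lost their calls between calvaria and ulna, Gad1 between mandible and ulna, and Gria2 and Nrgn between mandible and calvaria. Slc1a3 gained a call between mandible and ulna, and Eno2 between mandible and calvaria.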
